A study of Mus musculus with 31 samples.

Results

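Thymus of male mice heterozygous for Dll1 was compared with thymus of wild-type mice on dual-colour cDNA arrays. The comparison was chosen by its labels as the 7 arrays of heterozygous thymus among 31 arrays of 4 organs. They hold 4 heterozygous males of 17 weeks, and every array carried the RNA of 1 of them together with 1 wild-type thymus RNA pool from males of 18 weeks. Animals 1, 3 and 4 were each measured on 2 arrays with the dyes swapped, and animal 2 on 1 lone array with the heterozygous RNA in Cy5. The labels list 4 animals for the pool, while the labelling protocol gives another number. The labels call the line a Dll1 mutant and name no allele. The publication describes heterozygotes for a lacZ insertion in Dll1 (Dll1tm1Gos) on a C3HeB/FeJ background, but it cites another series record and other animal numbers, so it is not certain that these are the same animals. Brain, liver and spleen of the same 4 animals, with 8 arrays each, were used only to show where thymus differed.

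Dll1 encodes Delta-like 1, a transmembrane ligand that binds Notch receptors on neighbouring cells. Binding leads to cleavage of the receptor by ADAM proteases and γ-secretase, and the released intracellular domain acts with Rbpj and Mastermind proteins on target genes such as those of the Hes and Hey families. In the thymus, Notch1 signalling commits incoming progenitors to the T cell lineage, a step in which Delta-like 4 on the thymic epithelium is the main ligand. Dll1 in spleen is known for the development of marginal zone B cells.

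Each array gave 1 log2 ratio for each of 20794 spot rows, read here as heterozygous over pool. The ratios carry no level, so the thymic origin of the RNA could not be checked by expression. Of 13 thymocyte markers looked for, 7 had a tested row. Between 0.697% and 2.52% of the values were missing on 6 arrays and 8.45% on the lone array. The SD over rows was 0.45 to 0.66 on those 6 arrays and 0.94 on the lone array. Values piled up where the ratios of small whole numbers would fall, as dim spots give, and these are called weak values below. They made up 4.57% to 8.10% of the values on 6 arrays and 16.7% on the lone array. The same positions at the median of all shifts tried caught 1.71% to 2.21% of the values. Some values called weak thus lie there by coincidence, and a weak value in a single row is no proof of a dim spot. Of the 8 tested rows of the thymocyte markers, 3 (37.5%) held no weak value on any array, beside 63.6% of all rows tested. This limits what is said of T cell genes below. Over all rows the 2 dye-swapped arrays of an animal were correlated only weakly, with Pearson coefficients of 0.13 in animal 1, 0.03 in animal 3 and 0.06 in animal 4. These coefficients are over rows, which are not independent replicates.

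Gene names were inferred, since the row numbers could not be matched to the list of probe genes directly. A row was given the gene of the probe standing 11 places earlier in that list. Under this displacement, spots of the same gene gave a mean correlation of 0.0353 on single thymus arrays and of 0.183 for the difference between animals 4 and 1, the highest of 601 displacements examined in both measures. For the mean of the 4 animals the same correlation was 0.0051 and ranked 243 of 601, below the 0.04 of the rows as listed (rank 10). Single genes named by their mean ratio are therefore less sure than groups of genes that differ between animals. The gain was also not seen on every array. With pairs from genes of few rows, names as listed gave the higher correlation on the lone array (0.0194 beside 0.0186). They did so too on the Cy3 arrays of animal 1 (0.034 beside 0.0315) and animal 3 (0.0094 beside -0.0014). On the remaining arrays the displaced names gave the higher value. In the last part of the table the displacement is uncertain, and genes there are marked as uncertain below.

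Dll1 itself had 2 rows. The first read -0.71 and -1.90 on the arrays of animal 1, -0.02 and -2.05 on those of animal 3, -0.72 on the single array with a value in animal 4 and 0.58 in animal 2. The fit used 3 animals for it, since animal 4 lacked a value on 1 array, and the mean was -0.59 ± 1.02 (SD, n = 3; limma, adjusted p = 0.863). Without animal 2 the mean of the other 2 was -1.17. It held a weak value on 5 arrays. The second row, whose name is uncertain, read -1.07 and -0.37 in animal 1, -0.43 and -0.45 in animal 3, 0.72 and 0.31 in animal 4 and 0.25 in animal 2. Its mean was -0.10 ± 0.58 (SD, n = 4; limma, adjusted p = 0.925). In both rows animals 1 and 3 lay below the pool and animal 2 above it, so the animals did not share a direction. Which part of the transcript the spots cover is not known from the sources used here, so these rows are no test of the genotype.

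The Notch pathway list held 39 genes, of which 29 had a tested row. None of its 38 rows passed the adjusted threshold of 0.05. Its median ratio was -0.09, beside -0.01 over all rows tested, with 24 rows below 0 and 14 above. Among the receptors, Notch1, which drives T cell commitment, had a mean of -0.13 ± 0.25 (SD, n = 4) and Notch2 one of 0.22 ± 0.45 (SD, n = 4). Notch3, prominent in early thymocytes, had a mean of -0.05 ± 0.49 and Notch4, known from endothelium, one of 0.22 ± 0.24 (SD, n = 4 each). All 4 means were smaller than the SD between animals. The ligand Jag2 had rows with means of -0.31 and 0.09, and Jag1 one of -0.16 with a value in 3 animals. The target Hes1 had a mean of 0.23 ± 0.41 and Hes5 one of -0.12 ± 0.32 (SD, n = 4 each). Hey1, another target, had a mean of -0.21 in 1 row and of -0.13 in 2 rows with uncertain names. Fbxw7, the ubiquitin ligase subunit that turns over the active Notch fragment, had the highest mean of the list in 1 row, 0.90 ± 0.57 (SD, n = 3; unadjusted p = 0.0185 in limma), while its other row had 0.05 ± 0.27 (SD, n = 4).

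**Figure D1:**
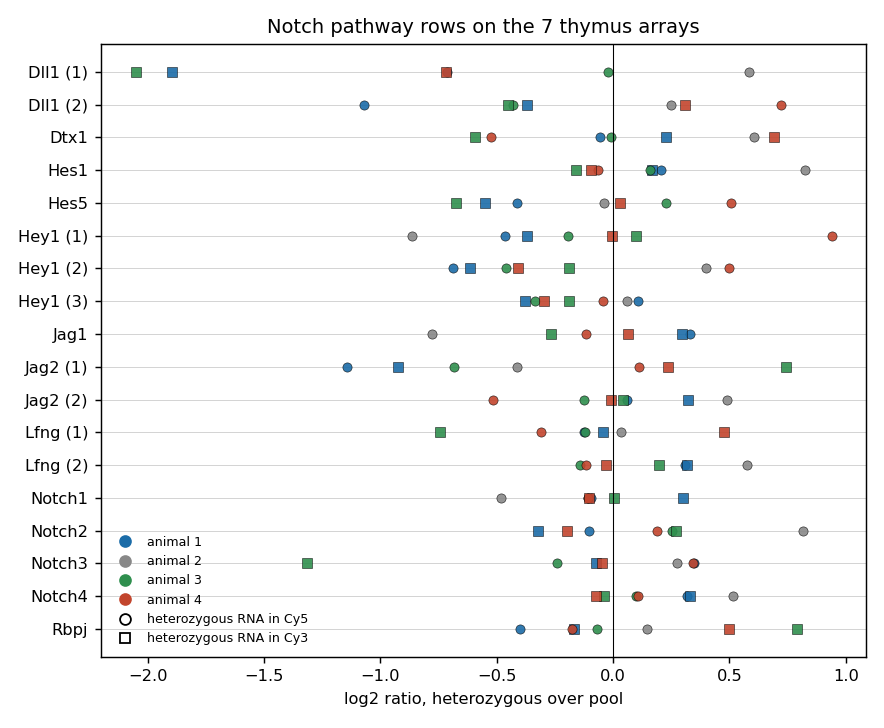
Log2 ratio (x axis, heterozygous over pool) of Notch pathway rows on the 7 thymus arrays. Colour gives the animal and the symbol the dye of the heterozygous RNA, with several rows of a gene numbered in table order. The points of all 18 rows lie on both sides of 0, and the first Dll1 row spans -2.05 to 0.58.

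Whether any row differed from the pool was tested with limma on the 4 animal means, for 20185 rows with a value in at least 3 animals. No row passed an adjusted p of 0.05 (0% lower and 0% higher), and the smallest adjusted p was 0.863. Before adjustment, 493 rows (2.44%) lay below the pool and 138 (0.684%) above it with a p under 0.05. Without the lone array, 19620 rows were tested, none passed, the smallest adjusted p was 0.282, and the same counts were 579 and 193. The pool is a single control sample, so the spread between wild-type animals is not part of the test. The number of arrays limits the precision.

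The large mean ratios lay mainly below 0. A mean below -1 was found in 204 rows and one above 1 in 35. Without the lone array these numbers were 133 and 12. Rows with a weak value on at least 1 array held 146 of the low and 12 of the high means, and the 12843 rows without any weak value held 58 and 23. The imbalance was seen on all 7 arrays, where values below -1 made up 53.3% to 90.0% of those beyond 1 in size. Read as Cy5 over Cy3, 150 means lay below -1 and 49 above 1, while the rows with a p under 0.05 before adjustment numbered 443 on either side. The part of weak spots in this imbalance was not tested.

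Same signs in all 4 animals were found in 1257 of 18227 rows below the pool (6.9%) and in 1101 above it (6.04%). On all 7 arrays, 185 of 18227 rows were below 0 and 159 above. Among the 10 named rows with the smallest p below the pool, 5 were below 0 on all 7 arrays. These 10 were chosen for a small p and for the same sign in all 4 animals, so this count is partly built into the choice. Gne (uncertain name), the first enzyme of sialic acid synthesis, had a mean of -1.75 ± 0.61 and Tph1 (uncertain name), which makes serotonin, one of -1.78 ± 0.66 (SD, n = 4 each). Tph1 was below 0 on every array, between -2.68 and -0.90, but its second row had a mean of -0.04. Fbn2, an extracellular fibrillin, had a mean of -0.94 ± 0.25 and Rpf1, a ribosome assembly factor, one of -0.84 ± 0.18 (SD, n = 4 each). Both had unequal arrays. Fbn2 read -0.06 and -2.47 in animal 3, and Rpf1 read -0.20 and -1.79 in animal 1. Rnf20, a ligase that ubiquitinates histone H2B, was the most even of them. It read -0.87 and -0.89 in animal 1, -0.68 and -0.61 in animal 3, -0.60 and -0.62 in animal 4 and -0.65 in animal 2, with a mean of -0.70 ± 0.12 (SD, n = 4; limma, unadjusted p = 0.00161, adjusted p = 0.863). In spleen of the same animals its mean was -0.71. Each of the 10 held a weak value on at least 1 array, while 63.6% of all rows tested held none.

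**Figure D2:**
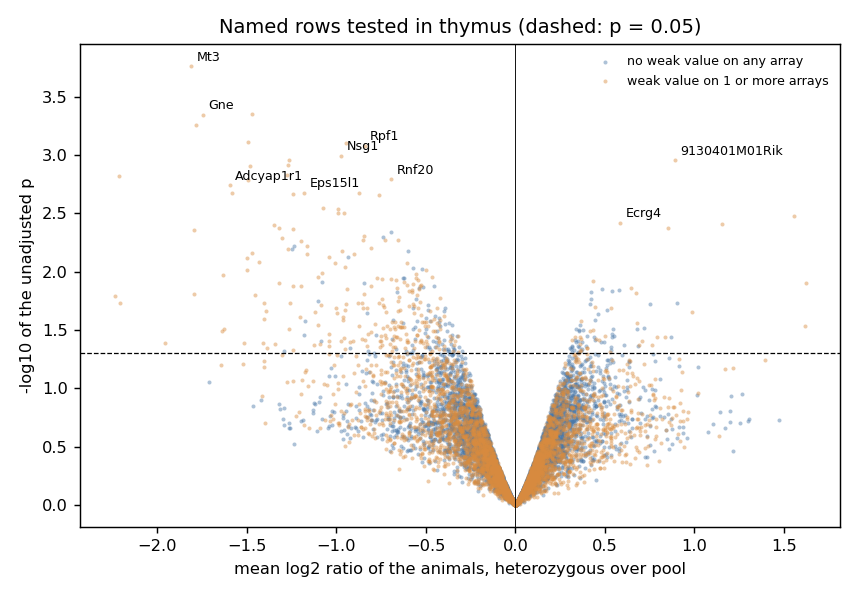
Mean log2 ratio of the animals (x axis) against -log10 of the unadjusted p from limma (y axis) for the 12359 named rows tested, coloured by whether any array held a weak value. The low arm reaches farther out and higher than the high arm, and none of the points passed the adjusted threshold.

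Rows above the pool in all 4 animals had smaller ratios. The uncharacterised transcript 9130401M01Rik had a mean of 0.89 ± 0.26 (SD, n = 4), but its arrays read -0.81 and 3.05 in animal 1 and 3.30 and -1.13 in animal 4, so that the even animal means came from opposite arrays. Cntn2, an axonal adhesion molecule, had a mean of 0.43 ± 0.06 and was above 0 on all 7 arrays, between 0.09 and 0.62, with weak values on 3. Fbxo46, a substrate receptor of SCF ubiquitin ligases, had a mean of 0.42 ± 0.10 and read 0.19 to 0.68 on the 7 arrays, with no weak value, while its other row had a mean of -0.40. Gria3, a glutamate receptor subunit, and Mobp, a myelin protein, were above 0 on all 7 arrays as well, with means of 0.42 ± 0.14 and 0.41 ± 0.15 (SD, n = 4 each), though the second Mobp row had a mean of -0.33. Tyk2, a Janus kinase of cytokine receptors, had a mean of 0.58 ± 0.33 in 1 row, which was below 0 on the Cy5 arrays of animals 1 and 4. Another Tyk2 row did not share a direction, with -0.30, 0.16, -0.16 and 0.75 in animals 1 to 4. None of these had an adjusted p below 0.863.

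Some genes were spotted more than once. Of 2055 genes with at least 2 rows measured in all 4 animals, 5 had every row below the pool in every animal and 8 had every row above it. Since 6.9% and 6.04% of single rows had 1 sign in all animals, such small counts are not a result about these genes, and their values are given as a description. The 5 were Tpm1, Spata7, Pkig, Eps15l1 and Mthfd1l. Tpm1, a tropomyosin of the actin cytoskeleton, had means of -0.38 ± 0.35 and -0.33 ± 0.21, and Spata7, a ciliary protein, had -0.33 ± 0.22 and -0.33 ± 0.33 (SD, n = 4 each). Mthfd1l, a mitochondrial enzyme of folate metabolism, had -0.16 and -0.21. For Pkig, an inhibitor of protein kinase A, the means were -0.32 and -1.35 with an uncertain name for the second. The 8 above the pool were Anxa7, Plxna2, Ptger1, Vps26b, Surf4, Twist2, Cops8 and Rgl2. Vps26b, a subunit of the retromer complex, had means of 0.17 ± 0.07 and 0.24 ± 0.05 (SD, n = 4 each), and its second row was above 0 on all 7 arrays (0.10 to 0.37). Anxa7, a membrane-binding annexin, read 1.43 and 1.54 in animal 2 in its 2 rows and between 0.01 and 0.27 in the other animals. The unadjusted p of all rows named here lay above 0.05 apart from 1 row each of Eps15l1 (0.0021) and Pkig (0.00401).

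A list of 13 genes was drawn up from those the publication names for thymus, without its entries that carry only a sequence accession, and 9 of the 13 had a tested row. None of their 19 rows had an unadjusted p under 0.05 in limma. Over all rows, 2.44% passed this below the pool and 0.684% above it, so none among 19 rows is not a result about these genes. Their median ratio was 0.01, and 9 rows were below 0 and 10 above. The list was taken from the publication, which reports these genes as downregulated in heterozygous thymus, and is no independent evidence of a direction. Apc, which restrains Wnt signalling, was below 0 on all 7 arrays in 1 row (-0.53 to -0.02), with a mean of -0.25 ± 0.10 (SD, n = 4; limma, unadjusted p = 0.0863) and an uncertain name. Its other row, also uncertain, had -0.22 ± 0.63. Bcl11b, a transcription factor that fixes T cell identity, had means of 0.16 ± 0.27 and -0.25 ± 0.45 (SD, n = 4 each). Both rows were lowest in animal 1 and highest in animal 4. Ywhab, a 14-3-3 protein, had means of 0.12, -0.13 and -0.18 in its 3 rows, and Ddx6, an RNA helicase of processing bodies, had 0.01, 0.04, 0.01 and -0.84, the last 2 with uncertain names. Srsf5, a splicing factor, had 0.11 ± 0.14 and 0.09 ± 0.10 (SD, n = 4 each). Higd1b, a hypoxia-inducible domain protein, was close to the pool in every animal, between -0.04 and 0.01. Trip12, a HECT ubiquitin ligase, had 0.12 and -0.02, Vldlr, a lipoprotein receptor, had 0.14 and -0.03 with uncertain names, and Akap8, a nuclear anchoring protein, had 0.29 ± 0.33 (SD, n = 4).

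The 4 heterozygous animals differed from the pool in different directions, and whole groups of genes moved together within an animal. The 7 rows of the T cell receptor and CD3 list had a median of -0.26 in animal 1, -0.18 in animal 3, 0.24 in animal 2 and 0.37 in animal 4. On the arrays, 7 and 6 of the 7 rows were below 0 in animal 1 with either dye, and 6 and 6 were above 0 in animal 4. These are values of single animals, given as a description without a test. The 19 rows of coreceptors and T cell surface markers had medians of -0.36 in animal 1 and 0.22 in animal 4. Thy1, the thymocyte surface glycoprotein, read -0.37 and -0.54 in animal 1, -1.15 and -0.81 in animal 3, 0.63 and 0.31 in animal 4 and -0.81 in animal 2 in its first row. Satb1, a chromatin organiser abundant in thymocytes, was below 0 on both arrays of animal 1 and above 0 on both arrays of animal 4 in each of its 3 rows. Dntt, the terminal transferase of V(D)J joining, read -0.52 and -0.58 in animal 1 and 0.24 and 0.67 in animal 4. The thymic epithelium list stood closer to the pool, with animal medians from -0.13 to 0.01. In RNA of whole thymus, fewer cells of a type and less RNA per cell cannot be told apart.

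**Figure D3:**
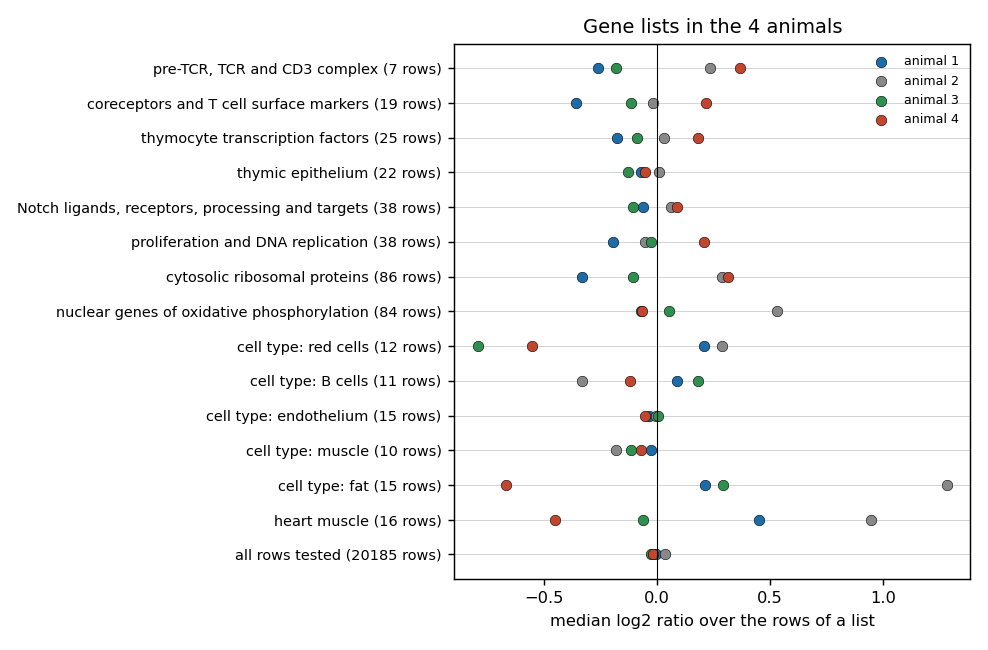
Median log2 ratio (x axis, heterozygous over pool) over the rows of a gene list in each of the 4 animals. T cell and ribosomal protein lists run from animal 1 at the low end to animal 4 at the high end, fat and heart muscle lists from animal 4 to animal 2, and the medians of all rows lie between -0.02 and 0.04.

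Ribosomal protein genes showed the same order over many more rows. Their 86 rows had a median of -0.33 in animal 1, -0.10 in animal 3, 0.29 in animal 2 and 0.31 in animal 4, beside -0.00, -0.02, 0.04 and -0.02 over all rows tested. On the 2 arrays of animal 1, 74 and 72 of the 86 rows were below 0, and on the 2 arrays of animal 4, 71 and 69 were above 0. Animal 3 was split, with 56 and 48 below 0. Thus the shift kept its sign when the dyes were swapped in animals 1 and 4, although the correlation over all rows was low. The median of the means over the 4 animals was 0.06, with 35 rows below 0 and 51 above, and without animal 2 it was -0.04. In all, 1 of the 86 rows (Rpl14, -0.69 ± 0.64, SD, n = 4) had an unadjusted p under 0.05 in limma. Over all rows, 2.44% did so below the pool and 0.684% above it, so this row is not a result about the list. The proliferation list, with replication genes such as Pcna and Mcm2, had medians of -0.19 in animal 1 and 0.21 in animal 4.

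**Figure D4:**
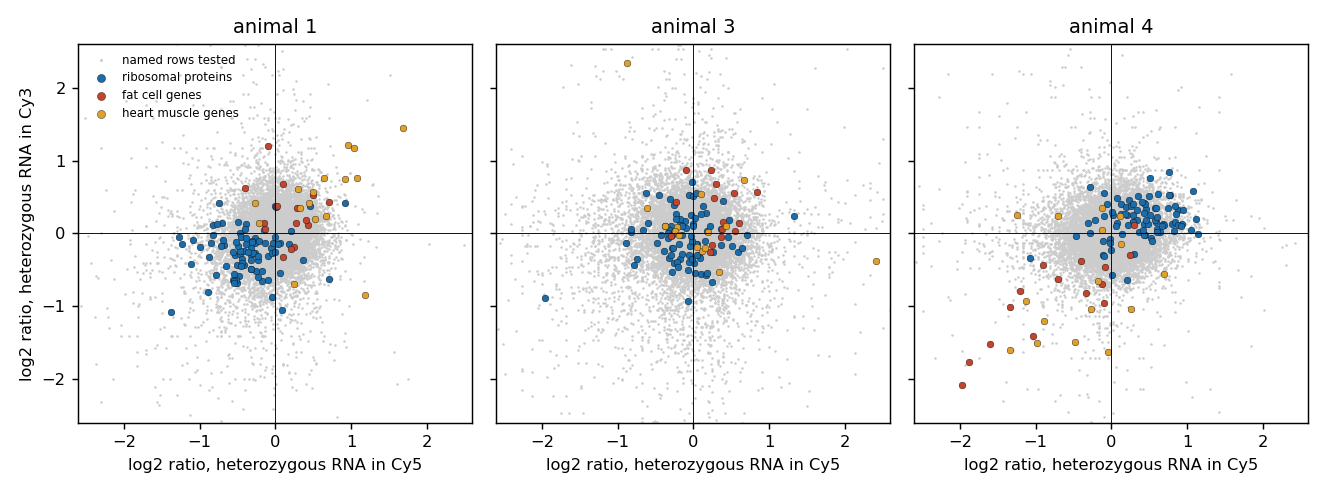
Log2 ratios on the array with the heterozygous RNA in Cy5 (x axis) and in Cy3 (y axis) for animals 1, 3 and 4, with axes cut at 2.6 in size. Ribosomal protein rows lie low on both axes in animal 1 and high on both in animal 4, where fat cell rows reach -1.97 and -2.08.

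Fat cell genes differed most between the animals. Their 15 rows had a median of 0.21 in animal 1, 1.28 in animal 2, 0.29 in animal 3 and -0.67 in animal 4. On the arrays of animal 4, 13 and 14 of the 15 rows were below 0, while on the lone array of animal 2, 13 were above 0. Ucp1, the uncoupling protein of brown fat, read -1.97 and -2.08 in animal 4 and 0.43 in animal 2, with values from -0.21 to 0.84 on the other arrays. Fabp4, the fatty acid binding protein of adipocytes, read -1.88 and -1.77 in animal 4 and 1.27 in animal 2. Lpl, lipoprotein lipase, was below 0 on both arrays of animal 4 and between 1.27 and 1.56 in animal 2 in all of its 3 rows, 1 of them with an uncertain name. Car3, carbonic anhydrase 3 of fat and muscle, had -0.58, -1.56 and -1.22 in animal 4 and 1.05, 1.29 and 1.42 in animal 2 in its 3 rows. The median of the means over the 4 animals was 0.18, with 12 rows above 0 and 3 below. Without animal 2 it was -0.12, so its sign rested on the lone array, where animal and dye cannot be told apart. No fat row had an unadjusted p under 0.05 in limma, beside 2.44% of all rows below the pool and 0.684% above it. With genes named at the row numbers as listed, the 15 fat rows had animal medians between -0.14 and 0.07.

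Genes of heart muscle followed a similar order, and they were looked up after Tnnt2 and Myl7 had been seen among the highest rows of animal 1. Their 16 rows had medians of 0.45 in animal 1, 0.95 in animal 2, -0.06 in animal 3 and -0.45 in animal 4. Tnnt2, cardiac troponin T, read 1.69 and 1.45 in animal 1, 2.12 in animal 2 and -0.98 and -1.50 in animal 4. Myh7, a cardiac myosin heavy chain, read 0.92 and 0.74 in animal 1 and 1.34 in animal 2. The 5 rows of lung epithelium, looked up in the same way, had medians of 0.36, 0.30, 0.38 and -0.03 in animals 1 to 4. Cyp2f2, an enzyme of airway club cells and 1 of the 5, read 0.98 and 0.83 in animal 1 and -0.47 and -0.44 in animal 4. The muscle list had animal medians from -0.18 to -0.02. In the spleen of the same animals the fat list had medians of -0.22 to 0.12, a narrower range than in thymus. The heart muscle list had a median of 0.78 in the spleen of animal 1 and of 0.11 to 0.22 in the others. The value of 0.78 was not particular to heart genes, since the spleen arrays of animal 1 had medians of 0.71 and 0.10 over all values. Lists of cholesterol synthesis (0.92) and interferon response (0.84) stood as high in that spleen, while others such as ribosomal proteins (-0.70) stood below 0. The part of neighbouring tissue in the thymus samples was not tested.

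**Figure D5:**
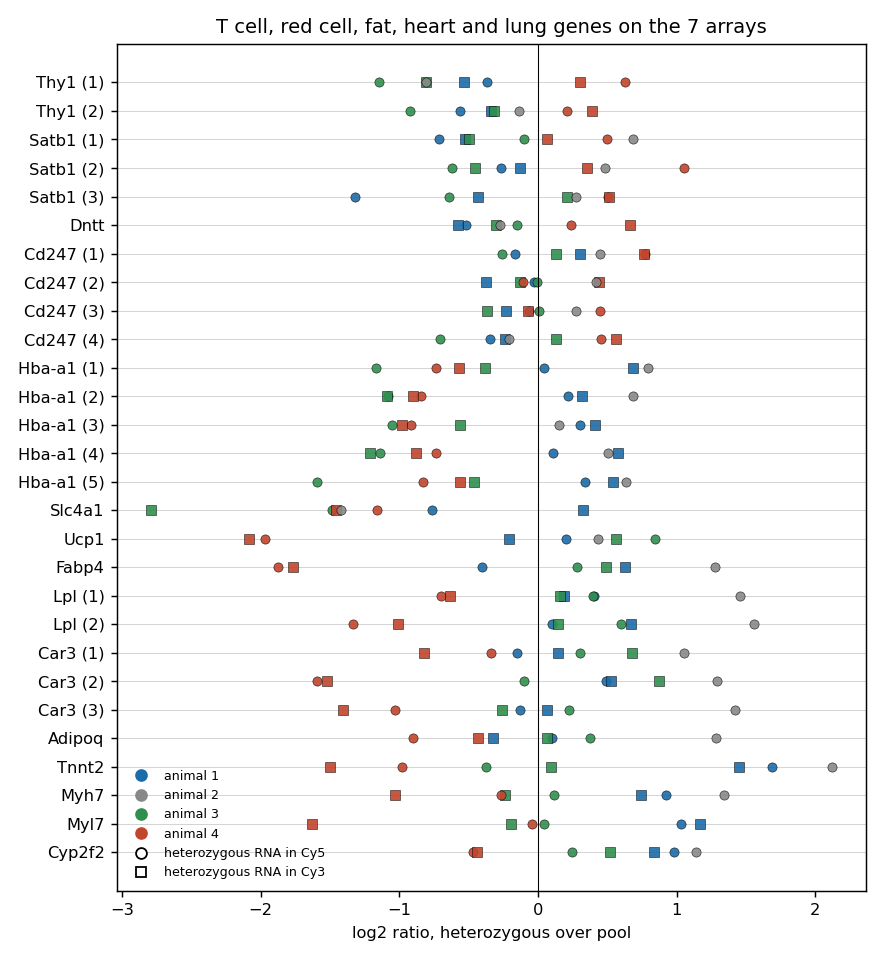
Log2 ratio (x axis, heterozygous over pool) of T cell, red cell, fat, heart muscle and airway genes on the 7 thymus arrays, with colour for the animal and symbol for the dye of the heterozygous RNA. Fat genes are low on both arrays of animal 4 and high in animal 2, and alpha globin (Hba-a1) is low on all arrays of animals 3 and 4.

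Red cell genes divided the animals another way. Alpha globin had 5 rows named Hba-a1 outside the last part of the table, which may also catch its near-identical copy. All 5 were below 0 on all arrays of animals 3 and 4 and above 0 on all arrays of animals 1 and 2. The second of them read -1.08 and -1.09 in animal 3, -0.84 and -0.90 in animal 4, 0.22 and 0.32 in animal 1 and 0.69 in animal 2. The 12 rows of the list had medians of 0.21, 0.29, -0.79 and -0.55 in animals 1 to 4. In spleen of the same animals they were -0.22, -0.69, 0.04 and -1.03, a different order. Slc4a1, the anion exchanger of red cells, had the lowest mean of the list, -1.27 ± 0.79 (SD, n = 4; unadjusted p = 0.00634 in limma), with weak values on 5 arrays.

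Nuclear genes of oxidative phosphorylation stood above the pool in animal 2, where the 84 rows had a median of 0.53, and near it in the others, between -0.07 and 0.06. The shift therefore rested on the lone array, and without animal 2 the median of the means turned from 0.09 to -0.03. That array has no dye swap, so animal and dye cannot be told apart there. Of the 83 rows of this list with 4 animals, 9 were above the pool in all of them and 4 were below, where 6.04% and 6.9% of all rows did so. Atp5k, a small subunit of ATP synthase, was among the former with 0.54 ± 0.44 (SD, n = 4; unadjusted p = 0.0344 in limma). Among the B cell genes, the median was -0.33 in animal 2 and between -0.12 and 0.18 in the others. Of all 33 lists, 4 had a median of their row means larger in size than the SD of their animal medians, which is another measure. They were thymic epithelium (-0.08), apoptosis (-0.08), MHC class I (-0.05) and endothelium (-0.05). Each turned sign in 1 to 3 of 9 alternatives. An animal median lay above 0 in thymic epithelium (0.01, animal 2), apoptosis (0.06, animal 4) and endothelium (0.005, animal 3). For MHC class I the medians of 3 animals lay above 0 nonetheless, between 0.05 and 0.07, and that of animal 1 was -0.03. Within the interferon list, Ifit3 (-0.50 ± 0.36) and Irf7 (-0.34 ± 0.17) were below the pool in every animal (SD, n = 4 each). Both had an unadjusted p under 0.05 in limma, as had 1 row of Rsad2, which read 0.16 in animal 1 and -1.79 in animal 3. No row had an adjusted p below 0.863. They were 3 of the 11 rows of the list, beside 2.44% of all rows that lay below the pool at such a p. In all, 2 of its 10 rows with 4 animals were below the pool in all of them, beside 6.9% of all rows, but the median of its 11 rows was 0.04. Itgal, the LFA-1 integrin chain of lymphocytes, was below the pool in every animal (-0.68 to -0.29) in 1 row with a mean of -0.50 ± 0.16 (SD, n = 4; unadjusted p = 0.00963 in limma). Id3, an inhibitor of E proteins in thymocyte selection, was below it as well in 1 row, from -0.50 to -0.08, with a mean of -0.35 ± 0.19 (SD, n = 4; unadjusted p = 0.0443 in limma). Itgal and Id3 are single rows picked from longer lists. The list of chemokine receptors and integrins had 10 rows below 0 and 13 above. Of its 19 rows with 4 animals, 1 was below the pool in all of them. Among thymocyte transcription factors 2 of 24 were, beside 6.9% of all rows.

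Thymus was then set against spleen, the other lymphoid organ, to see which ratios differed between organs. No row passed an adjusted p of 0.05 in limma over 19402 rows, and 1073 rows (5.53%) were lower and 821 (4.23%) higher in thymus at an unadjusted p under 0.05. With the animal as a block, which uses the pairing, the smallest adjusted p in limma rose from 0.43 to 0.727, and these counts were 775 and 530. After centring of the arrays they were 751 and 1194, and without animal 1 they were 914 and 1013. Without animal 3 they were 307 and 367 of 8566 rows tested. Without animal 2 they were 382 and 305 and without animal 4 they were 296 and 202, so that lower rows stayed more numerous there. Which direction held more rows thus changed with the scaling and with the animal left out. Leaving an animal out also changed which rows could be tested, and the part of each was not tested. The spleen arrays of animal 1 lacked 39.0% and 26.2% of their values and had SDs of 1.90 and 1.39, beside 0.66 to 0.86 on the other 6. Among 8445 rows with 4 animals in both organs, 0.675% were above the pool in every thymus and below it in every spleen, and 0.77% the reverse. The smallest p among rows higher in thymus went to Pou2af1, a B cell coactivator. Its ratios were 0.12 to 0.34 in thymus and -0.94 to -0.73 in spleen (unadjusted p = 0.000346 and adjusted p = 0.43 in limma without the block). Lyz2, lysozyme of macrophages, had a mean of 0.40 ± 0.68 in thymus (SD, n = 4), where animal 4 lay below 0, and lay between -1.28 and -1.24 in spleen. Srsf5 stood at 0.11 in thymus and between -1.25 and -0.75 in spleen in its first row. Ribosomal protein rows had animal medians of -0.83 to -0.50 in spleen, all below those of thymus. Rplp0, a protein of the ribosomal stalk, had a mean of 0.07 ± 0.18 in thymus (SD, n = 4) and lay between -1.60 and -0.72 in spleen. Among rows lower in thymus, Eps15l1, an endocytic adaptor, had ratios of -1.90 to -0.72 in thymus and of 0.55 to 1.73 in the 3 spleens with a value. Fancc, of the Fanconi anaemia pathway, lay between -0.13 and 0.08 in thymus and between 0.63 and 1.25 in spleen.

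Against the mean of the other 3 organs, no row passed an adjusted p of 0.05 in limma over 18061 rows either. Before adjustment, 877 rows (4.86%) lay lower and 599 (3.32%) higher in thymus with a p under 0.05, but 618 and 901 after centring and 638 and 933 without animal 1, where 11794 rows could be tested. Without animal 2 or animal 3 they were 85 and 94 or 185 and 311, over 6930 and 6536 rows. With the animal as a block, the smallest adjusted p of any row in limma was 0.231. Without the block, as for the rows named next, it was 0.171, for Gne, with a difference of -1.94 and an uncertain name. Susd4, a complement regulator, followed with -1.41 (adjusted p = 0.19) in a row measured in 3 thymus animals, while its other rows had means of -0.88 and -0.10 in thymus. Pla2g7, a plasma phospholipase, had a difference of -1.83 in 1 row (adjusted p = 0.317 in limma), and its 2 other rows had thymus means of -0.17 and -0.15. Higher in thymus were Niban1, Atp5k, Rps14, Psap and Tmem45b, with differences of 0.65 to 0.82. Niban1, a stress-responsive cytosolic protein, was above the pool in every thymus, between 0.22 and 0.49, and Psap, the saposin precursor of lysosomes, had a mean of 0.26 ± 0.19 (SD, n = 4).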

How the data were processed

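The authors hybridised labelled cDNA to dual-colour arrays, scanned them and deposited a log2 ratio for every spot. The normalization, the filter on dim spots and the direction of the ratio are not given in the sources used here. The base of the logarithm was taken from the publication. The direction was read as heterozygous over pool, since the labels give the heterozygous RNA as channel 1 on all arrays. Whether the sign runs the other way for every array is not settled, and every direction would then turn. Groups and dyes came from the sample labels.

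Values beyond 12 in size were treated as missing. An animal's dye-swapped arrays were averaged if neither value was missing, and the animal was the replicate. Rows with at least 3 animals were tested against 0 with limma 3.58.1 in R 4.3.3 (intercept only, empirical Bayes) and adjusted by Benjamini-Hochberg over all rows, with a threshold of 0.05. Organs were compared by the same method on animal means, with the animal as a block as an alternative, since the labels give the same 4 animals for every organ, which pairs the samples. The fit was run on simulated data with large added changes, which does not show what it can find at the smaller ratios seen here. Gene names came from GEO's platform annotation, updated through the Entrez IDs of its 12771 probes, all found in the RefSeq gene table. In all, 12760 rows got a name and 8034 did not. Weak values were those lying where the ratio of 2 whole numbers up to 12 would fall on that array, shifted by the offset that caught most values.

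Genes named are Dll1 and the genes the publication names for thymus, the 10 rows of each direction with the smallest p and the same sign in all 4 animals, genes with 2 or more rows of 1 sign throughout, the members with the largest mean ratios in each of 33 lists, and the 5 rows of each direction with the smallest p between organs. Thy1, Satb1, Ucp1, Fabp4, Car3 and other single genes in the paragraphs on animals were chosen after their values were seen, as were the heart muscle and lung lists. The members and lists were chosen with earlier results of these data known. Alternatives are described at the end. Single-channel intensities were not used here. Summaries used Python 3.11.15, pandas 2.3.3 and numpy 2.4.6.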

Additional observations from a re-analysis of the deposited data

Results flagged for a closer look

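In 114 groups of 4 animals, namely the named rows with 4 animals and the list medians, 5 had 1 animal far from the others, where chance gives about 1 in 20. Both Anxa7 rows stood apart in animal 2, at 1.43 and 1.54. Animal 1 stood apart in 1 row each of Mthfd1l (-0.36), Pkig (-0.85) and Rnf20 (-0.88).

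Among 37 named rows with 4 animals in both organs, 3 were above the pool in every thymus and below it in every spleen, beside 0.675% of 8445 rows in all. Rows of this kind were partly named for their difference between organs or for 1 sign in thymus, so the count of 3 is built into the choice. The differences between thymus and spleen were 0.84 for Atp5k, 1.02 for Pou2af1 and 1.12 for the first Rgl2 row. Rgl2 encodes an exchange factor for Ral proteins. None passed the adjusted threshold in limma, where the adjusted p for the difference, without the animal as a block, was 0.437, 0.43 and 0.43.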

How the results depend on the processing

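No row passed the threshold in thymus under any of the 18 alternatives, with smallest adjusted p from 0.111 (spread shared by the 4 organs) to 0.901 (without animal 3). Before adjustment, the rows below and above the pool with a p under 0.05 numbered 493 and 138, but 349 and 326 without moderation, 443 and 443 read as Cy5 over Cy3, 630 and 255 after scaling, 319 and 141 without weak values, and 247 to 579 and 56 to 193 when 1 animal was left out, with 247 and 56 without animal 3. The share of lower rows was thus 78.1% at first and 51.7% without moderation. Weak values and single values of an animal were examined after the data were seen. With the animal as a block, 0 rows passed against spleen and 0 against the 3 organs, as without it, and the counts at an unadjusted p under 0.05 were 775 and 530 against spleen and 707 and 437 against the 3 organs. When 1 animal was left out 0 rows passed in either comparison of organs, but as few as 6536 rows could be tested, and without animal 1 the rows with a p under 0.05 before adjustment turned from mostly lower to mostly higher (914 and 1013 against spleen, 638 and 933 against the 3 organs), as they did without animal 3 (307 and 367, 185 and 311) and, against the 3 organs, without animal 2 (85 and 94). Of 83 named rows, 50 kept their direction under all alternatives that gave a value, among them 8 of the 10 lower and 8 of the 10 higher rows with the smallest p. The rows with the smallest p, and the genes with several rows of 1 sign, were chosen for the same sign in all 4 animals. Leaving 1 animal out could therefore not turn their mean, and several alternatives reuse that mean. For these rows the count is no sign of robustness. Of the 33 list medians, 3 kept their sign in all 9 alternatives (V(D)J recombination, Wnt pathway and muscle). Dim spots limit the ratios most on the lone array, and signal over background is not known.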
